A study of Cynara cardunculus with 36 samples.

Results

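The subject is a set of 100 gene models with lower read counts in the hearts of 1 globe artichoke cultivar, Imperial Star (IS). Counts were higher in 3 other cultivars at every day of cold storage. The mean level over the 4 cultivars changed little during storage, but only 10 members kept within the same limit in each cultivar. The members were selected on these libraries from 21989 gene models tested, of 28632 listed. The level used was log2 CPM, the log of reads scaled to a common library total, after TMM scaling, a correction for library composition. The gap of a gene model was the smallest difference, over days 0, 7 and 14, between the lowest mean of the other cultivars and the IS mean. A gap over 0 was found for 1005 gene models. In 350 of them the mean over the 4 cultivars also moved by under 0.7 (log2) from day 0 to day 7 and to day 14, and the 100 with the largest gap are described. Because measured levels chose the members, their difference from IS over all libraries is a description with no test. Tests were run on IS in libraries left out of a repeated choice, and on differences among the 3 other cultivars. The lowest mean of those 3 also enters the rule.

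Hearts, the edible inner part of the head of Cynara cardunculus var. scolymus, were sampled from the cultivars Green Queen (GQ), Green Globe Improved (GGI), Opal (OP) and IS on days 0, 7 and 14 of storage in the cold. Each of the 12 groups has 3 libraries, labelled as biological replicates, which makes 36. All plants were field-grown in Florida under GA treatment, and all heads had spent 48 h at 4 °C before day 0, so no group is freshly cut. The GA treatment served to bring on early flowering. Within a plant species, cultivars commonly carry genes that are silent, lost or altered in one cultivar only. In a count table such a gene has few or no reads in that cultivar whatever the treatment, whereas a gene regulated by storage moves with time. A lower transcript level, a missing or altered gene copy, and reads too different from the reference gene model to be assigned all lower a count, and they cannot be told apart here. In whole tissue, fewer cells of a type and less RNA per cell cannot be told apart either.

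The files name gene models by ID and pair no ID with a gene name, and 0 of the 28632 IDs matched the RefSeq gene table of this species. No function, sequence or tissue marker can therefore be given. The members are called by their rank in gap, member 1 having the largest, and IDs are printed for 4 of them. CPM are not divided by length, so values are compared between libraries for one gene model and not between gene models.

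A library held 5.76 to 54.5 M reads in gene models (M, 10 to the power 6; median 39.6 M), and the 9 IS libraries held 33.3 to 54.5 M. In all, 4 libraries stood apart by their share of reads outside gene models, all of them from day 7. The share was 71.0% in replicate 1 of OP, 33.5% in replicate 2 of GGI, and 31.6% and 30.1% in replicates 2 and 3 of GQ, against 9.39% to 16.0% in the other 32. The day 14 libraries labelled GGI replicate 1 and GQ replicate 1 went against their labels. Day 0 gave 99 gene models that were on in one of these cultivars and off in the other. The first library matched GQ for 91 of them, and the second matched GGI for 71. The IS libraries of days 7 and 14 kept their label, with 37 to 40 of 40 day 0 markers of IS in the IS state. The IS libraries of day 0 defined these markers, so their own state is no check. None of the 6 libraries that stood apart in these 2 ways is an IS library.

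The size of the difference was very unequal among members, which are grouped here by set bounds of 0.1 and 1 CPM in IS. In 42 members, IS averaged under 0.1 CPM, and 13 of these had 0 reads in all 9 IS libraries. In 53 members, IS averaged 1 CPM or more, and the mean of the other cultivars was 1.53 to 50.3 times that of IS, with a median ratio of 2.43. The remaining 5 members lay between 0.1 and 1 CPM in IS. Of the 53, 35 had a ratio from 1.5 to 3 and 11 a ratio over 4.

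**Figure D1:**
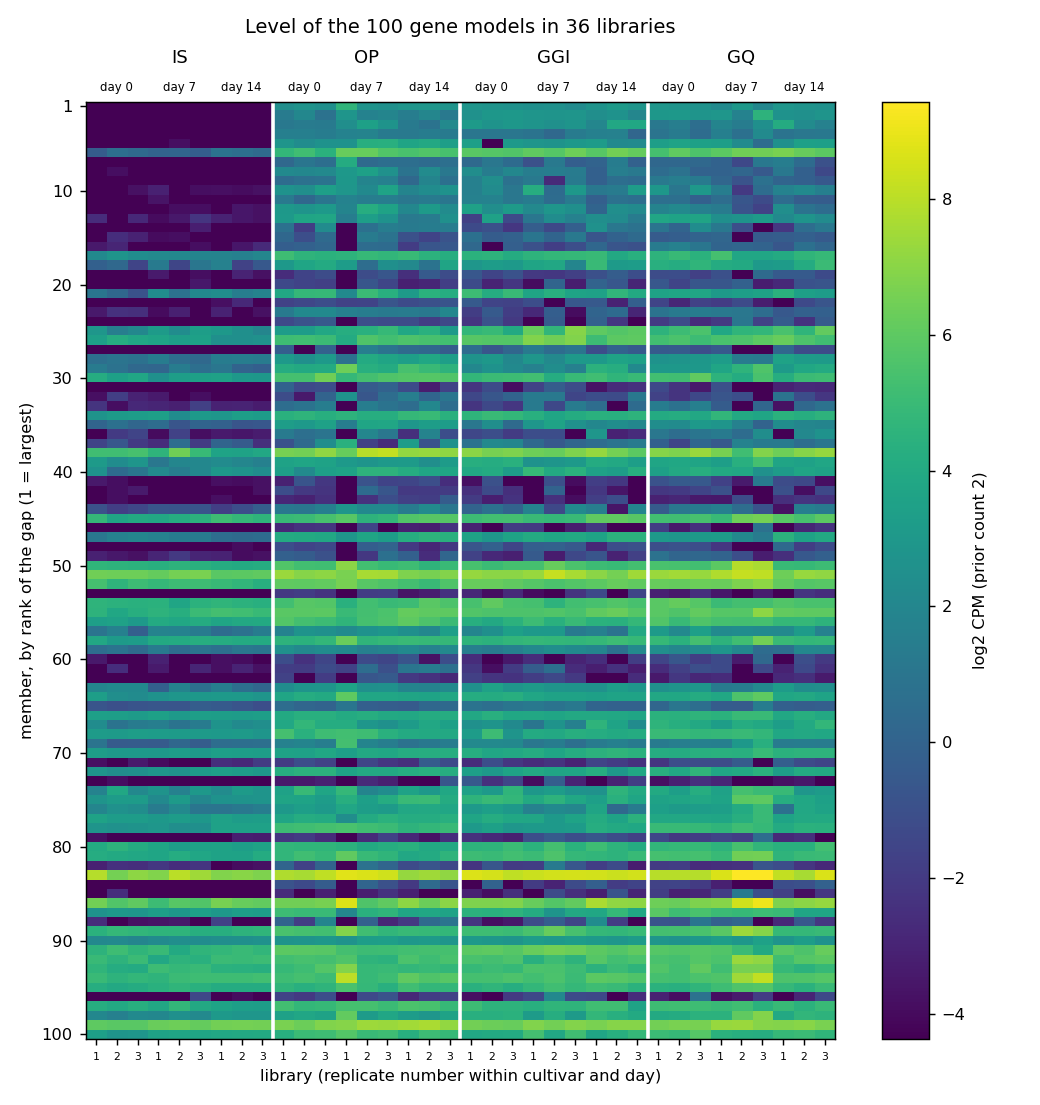
Log2 CPM (prior count 2, colour scale) of the 100 members, ordered by gap from the top, in each of the 36 libraries; columns are grouped by cultivar and day, with the replicate number below. The 9 IS columns are darker in both the rows that are near 0 reads and the rows with moderate levels, and OP day 7 replicate 1 holds 0 reads for 27 members.

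The gap ranged from 6.80 to 0.32 (log2) with a median of 0.69, against a median of -1.24 over all gene models tested. It was over 1 in 34 members and over 3 in 13. Just inside the limit, the members in places 97 to 100 had gaps of 0.33, 0.33, 0.33 and 0.32, and just outside it the next 4 had 0.32, 0.32, 0.31 and 0.31, so the set has no natural edge. By day, the median difference between the lowest other cultivar and IS was 1.15 at day 0, 1.10 at day 7 and 1.13 at day 14. The smallest of the 3 fell on day 0 in 30 members, on day 7 in 44 and on day 14 in 26.

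Member 1, V2_03g017180.1.01, had 0 reads in each of the 9 IS libraries. In OP its CPM were 5.39, 6.46 and 5.70 at day 0, 24.8, 6.49 and 5.80 at day 7, and 6.93, 7.39 and 6.65 at day 14. In GGI they were 7.07, 6.65 and 6.01 at day 0, 5.61, 5.82 and 4.86 at day 7, and 6.58, 8.92 and 6.93 at day 14. The level was thus nearly even in all 27 libraries of the other cultivars, with 1 high value in the OP library that had 5.76 M reads in gene models. In GQ the CPM ran from 4.08 to 7.90 with a median of 6.45. With 6817 reads in the other cultivars together, the level there was at least 909-fold higher than in IS, against a floor of 3 counts over the 9 IS libraries (0.00704 CPM). Bounds and intervals of this kind cover counting error only.

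Member 2, V2_03g009850.1.01, also had 0 reads in every IS library and was at least 828-fold higher in the others. Its CPM were 2.53, 4.04 and 1.70 in OP at day 0, 6.13, 7.67 and 7.93 in GGI, and 7.67, 8.01 and 6.69 in GQ. The OP libraries were below all GGI and GQ libraries at day 0, so the cultivars that express it also differed. At day 7 it was at 7.17, 3.29 and 3.77 CPM in OP, 6.86 to 7.02 in GGI and 7.19, 3.36 and 23.5 in GQ, where the last 2 libraries were high in reads outside gene models, whose part in the spread was not tested. At day 14 the ranges were 2.26 to 3.81 CPM in OP, 3.91 to 6.21 in GGI and 5.88 to 6.88 in GQ.

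Further members with 0 IS reads had lower or less even levels elsewhere. Member 4 averaged 2.78 ± 0.420 CPM over the OP libraries, 2.10 ± 0.720 over those of GGI and 2.35 ± 1.02 over those of GQ (SD over 9 libraries), at least 332-fold above IS. Member 3, at least 832-fold above IS, ran from 1.46 to 17.2 CPM over the other cultivars. At day 0 it was at 8.96, 6.62 and 7.51 CPM in GGI and at 2.20, 2.80 and 1.46 in GQ. At day 14 it was at 3.89, 15.0 and 14.3 CPM in the libraries labelled GGI and at 17.2, 4.89 and 3.19 in those labelled GQ, where replicate 1 of each label is the one with the markers of the other cultivar. For members 46, 53 and 62 the other cultivars held only 131, 124 and 191 reads in all, and the bounds were 17.5-fold, 16.5-fold and 25.5-fold.

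A few reads remained in IS for other near-silent members. Member 5 had 1 read in IS, in day 7 replicate 2, against 9857 in the other cultivars, a ratio of 3943 with a 95% Clopper-Pearson interval of 707 to 155747. It was not present in every library of the other cultivars, since GGI day 0 replicate 2 had 0 CPM beside 10.6 and 8.60 in the other GGI libraries of that day. Member 13 went the other way in these GGI libraries, high only in replicate 2, with 0.251, 11.6 and 0.356 CPM in order of replicate. On the same day it was at 12.2 to 13.6 CPM in GQ and 8.57 to 14.0 in OP. In IS, member 13 ranged from 0 to 0.163 CPM. Of the 42 members under 0.1 CPM in IS, 12 had reads in all 27 other libraries and 30 lacked them in at least 1. For 26 members the libraries without reads included OP day 7 replicate 1, where the floor of 3 counts is 0.827 CPM. In a separate count, the mean of the other cultivars was itself under 1 CPM in 26 of the 42. For these the contrast is between few reads and almost none.

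**Figure D2:**
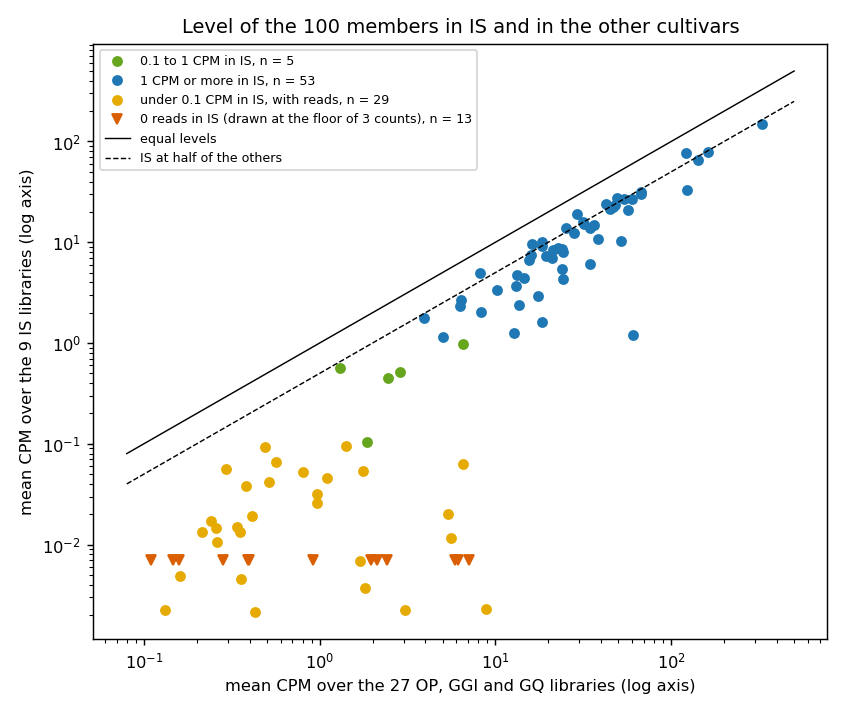
Mean CPM over the 9 IS libraries against mean CPM over the 27 libraries of OP, GGI and GQ for the 100 members, both on log axes; the solid line marks equal levels and the dashed line a ratio of 2, and the 13 members with 0 IS reads are drawn at the floor of 3 counts. The 53 members at 1 CPM or more in IS lie along the dashed line with a few far below it. The 42 members under 0.1 CPM lie lowest and 5 lie between, where the bounds of 0.1 and 1 CPM are settings.

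Among members that IS does express, member 6 had the largest gap, 4.58 (log2). In IS its CPM were 0.739, 1.49 and 1.24 at day 0, 0.963, 1.01 and 0.796 at day 7, and 1.83, 1.56 and 1.27 at day 14. The other cultivars ran from 21.5 to 73.6 CPM in OP, 51.4 to 91.4 in GGI and 40.7 to 101 in GQ, so no library of theirs came within 10 CPM of an IS library. Member 17 followed the same pattern at a smaller ratio, with 3.10 to 6.74 CPM in IS (median 4.12) and 13.6 to 41.5 CPM elsewhere. Its IS values were 4.54, 6.74 and 5.01 at day 0 and 3.47, 3.10 and 3.87 at day 14.

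The 2 further members named for their level were V2_12g005040.1.01, member 51, and V2_17g003800.1.01, member 83. V2_12g005040.1.01 was at 85.4 ± 1.98 CPM in IS at day 0, against 141 ± 22.6 in OP, 137 ± 12.9 in GGI and, highest, 167 ± 14.7 in GQ (SD, 3 libraries a group). At day 14 it was at 62.9 ± 3.40 CPM in IS, 108 ± 10.8 in OP, 129 ± 38.9 in GQ and 135 ± 42.2 in GGI (SD, 3 libraries a group). Within each of these days every IS library was below every other library. Across days they overlapped, since 84.8 CPM in the day 14 library labelled GQ replicate 1, 93.8 in GGI day 14 replicate 2 and 97.6 in OP day 14 replicate 2 lay below the highest IS value, 101 at day 7. V2_17g003800.1.01 was at 155 ± 74.3 CPM in IS at day 0, where the single libraries had 237, 93.4 and 134, and OP on that day had 224, 195 and 273. IS and OP overlapped on that day in V2_17g003800.1.01. At day 14 they did not, as IS had 114, 127 and 107 CPM and OP 150, 175 and 139, against 318 to 358 in GGI.

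**Figure D3:**
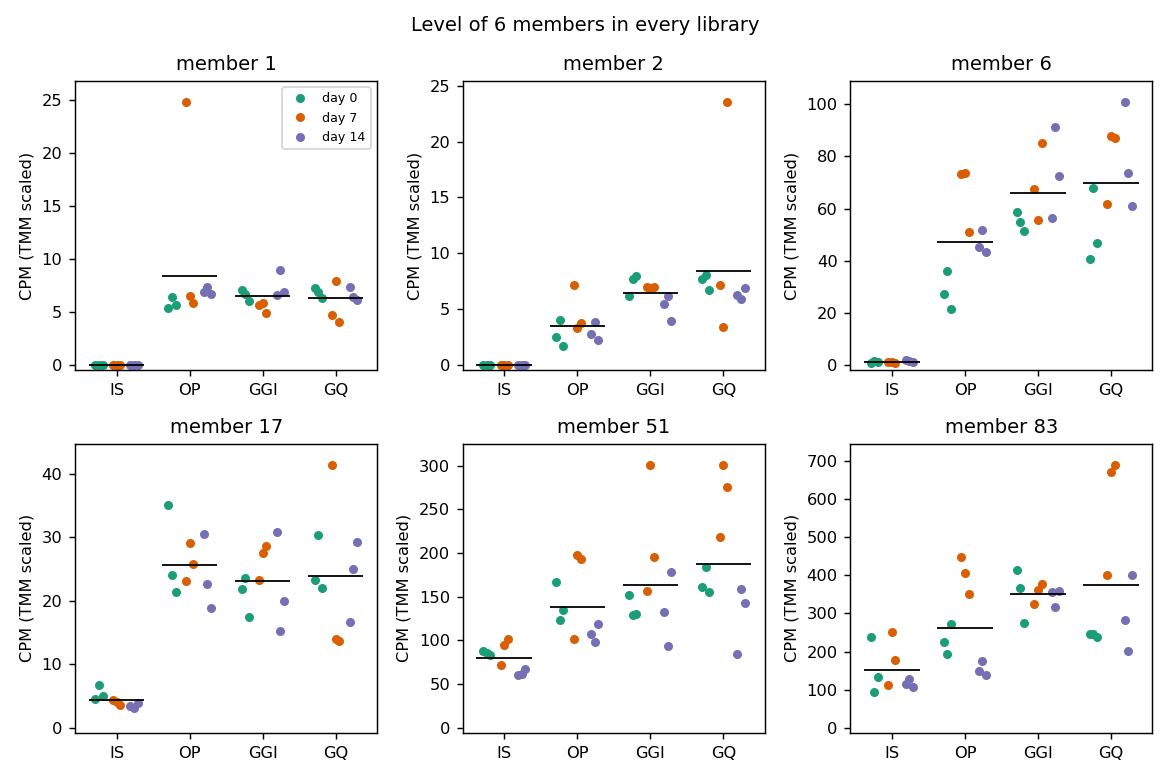
CPM (TMM scaled) of members 1, 2, 6, 17, 51 and 83 in every library, by cultivar, coloured by day of storage; each horizontal line is the mean over 9 libraries. Members 1, 2, 6 and 17 have all IS libraries below all others, while members 51 and 83 overlap with single libraries of the other cultivars.

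Every IS library lay below every one of the 27 other libraries in 21 members, 11 of them under 0.1 CPM in IS and 10 at 1 CPM or more. Over all gene models tested the share was 0.173%, but the rule reads the same contrast and nothing is drawn from this. OP day 7 replicate 1 was the lowest of the 27 in 27 members, GQ day 7 replicate 3 in 9 and the library labelled GQ day 14 replicate 1 in 8. Of the 27 members without reads in OP day 7 replicate 1, 26 were under 0.1 CPM in IS. Without the 4 libraries high in reads outside gene models the count was 33, and without all 6 that stood apart it was 34. Leaving out the 4 also changed which gene models the rule picks, with 57 of the 100 picked again.

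To read the difference in libraries that had not chosen the gene models, the same rule was applied to the 24 libraries of 2 replicate numbers, and IS was then compared with the mean of the others in the 12 libraries of the third number. The 100 gene models chosen without replicate 1 included 59 of the members, those without replicate 2 included 66 and those without replicate 3 included 68. Many of them pass the filter on low reads only through the cultivars where they are high, so a lower IS value was fixed before the test. The comparison was therefore read in gene models with 10 or more reads in each of the 3 held-out IS libraries, a limit chosen after seeing the data, which left 60, 65 and 72. IS was lower in 60 of 60, 65 of 65 and 72 of 72 of these, against 41.4%, 46.0% and 45.2% of all gene models under the same limit. The median log2 difference, IS minus others, was -1.06, -1.08 and -1.23, against 0.10, 0.04 and 0.06 over all under that limit.

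**Figure D4:**
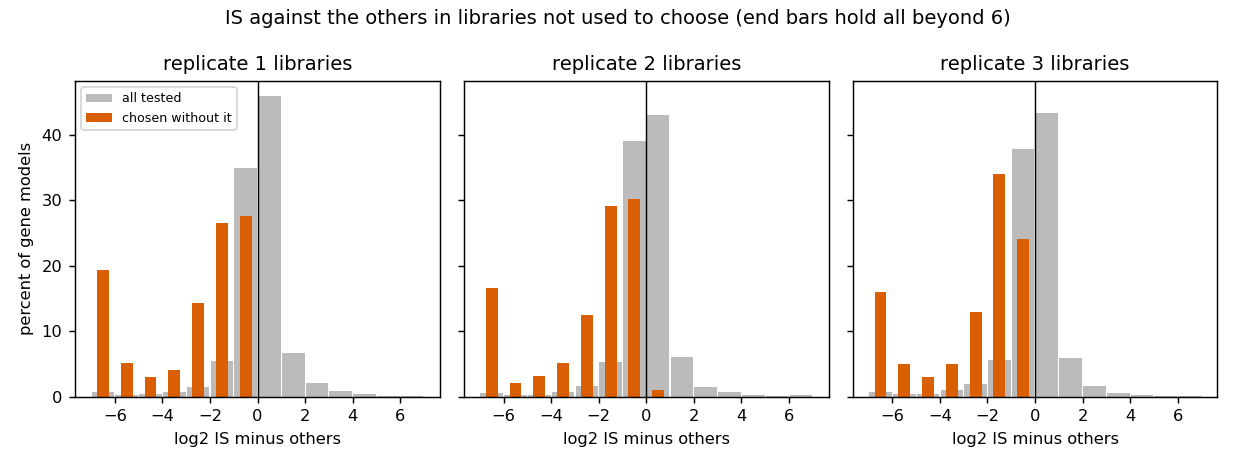
Share of gene models (percent) by log2 difference of IS minus the other cultivars in the libraries of the replicate number that was left out when choosing; grey bars are all gene models tested, orange bars those chosen by the rule from the other 2 replicate numbers, and the end bars hold all values beyond 6. The orange bars lie below 0 except for 1 gene model in replicate 2, and they include the 38, 31 and 28 gene models with too few IS reads, whose direction the filter fixed.

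By edgeR's quasi-likelihood test with Benjamini-Hochberg adjustment over all gene models (adjusted p under 0.05), IS was called lower for 2 of the 60 gene models in replicate 1, 6 of the 65 in replicate 2 and 4 of the 72 in replicate 3. Of all gene models under the same limit on IS reads, 0.0112%, 0.133% and 0.0722% were called lower. In the 60, 65 and 72 chosen gene models, the unadjusted edgeR p was under 0.05 with IS lower for 37, 42 and 53. The share of all gene models at that unadjusted p was not counted, so nothing is drawn from these 3 counts. DESeq2 called 26, 28 and 34, where it called 1.09%, 1.65% and 1.36% of all under the limit. Without that limit edgeR called 5, 16 and 16 of the 100 and DESeq2 53, 48 and 54, with 0.072%, 0.319% and 0.259% of all gene models called by edgeR and 2.03%, 2.65% and 2.62% by DESeq2. Of those edgeR calls, 3, 10 and 12 had too few IS reads to be read as support. The DESeq2 counts without the limit also hold such gene models, so they are not read as support either. Members 6 and 17 were called in all 3 replicate numbers, and members 18, 21, 26 and 30 in 1 or 2. Member 6 differed by -5.64 ± 0.45, -5.55 ± 0.40 and -5.58 ± 0.44 (log2, SE; edgeR, adjusted p = 0.0027, 0.000698 and 0.0023). Member 17 differed by -2.70 ± 0.39, -2.38 ± 0.37 and -2.40 ± 0.38 (adjusted p = 0.0472, 0.0199 and 0.0284). Members 1, 2 and 4 had 0 reads in the held-out IS libraries each time. V2_12g005040.1.01 differed by -0.91 ± 0.28, -1.02 ± 0.27 and -0.99 ± 0.28 (log2, SE) and did not pass (edgeR, adjusted p = 0.335, 0.162 and 0.233).

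The edgeR counts under the limit depended on single libraries. For fits with libraries left out, the share over all gene models was counted only without those that stood apart. In replicate 1 the count was 0 without IS day 0, 3 without OP day 7 and 1 without any one of the other 10. In replicate 2 it was 2 without IS day 7 or IS day 14 and 3 without IS day 0 or the day 14 library of any other cultivar. In replicate 3 it was 14 without GQ day 7, a library high in reads outside gene models, 3 without GQ day 14, and 1 or 2 without any one of the other 10. Without all libraries that stood apart the counts were 1, 4 and 14, where 0.0112%, 0.21% and 0.233% of all gene models under the limit were called lower. IS was then lower in 60 of 60, 65 of 65 and 72 of 72. Without the limit those counts were 1, 12 and 28 of the 100, where 0.0342%, 0.415% and 0.509% of all gene models were called lower.

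The rule compares IS with the lowest other cultivar, so the means of OP, GGI and GQ entered it through the lowest of them. Differences among the 3 were tested in the same libraries, and the calls are therefore not independent of the choice. Over the 3 days together, 29 of the 100 members were called by an F test in the fit of all 36 libraries (edgeR, adjusted p under 0.05), against 22.2% of all gene models tested, a share near the background. The median range among the 3 cultivar means was 0.70 (log2) in the members and 0.64 in all tested. Among the 29, OP was lowest in 12, GGI in 11 and GQ in 6, and OP was highest in 13, GQ in 11 and GGI in 5. Without GQ day 7 replicate 1 the count was 45, and 41.2% of all gene models tested were called in that fit.

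Member 23 had the widest of these differences, with mean log2 CPM of 1.61 in OP, -1.50 in GGI and 0.62 in GQ (edgeR, adjusted p = 0.00163). Member 78 was at 5.08 in OP, 3.43 in GGI and 4.72 in GQ (adjusted p = 3.93e-10). By mean, both were thus lowest in GGI among the 3, yet lower still in IS. Single libraries overlapped in member 23, at 0.0191 to 1.30 CPM in GGI and 0 to 0.141 in IS. Its GGI mean includes 1.03 CPM in the day 14 library labelled GGI that matched GQ. For V2_03g009850.1.01, OP was 0.93 below GGI (log2), and the cultivars differed (edgeR, adjusted p = 0.00981). Member 6 was also lowest in OP, 0.56 below GGI (adjusted p = 0.00728). Member 3 passed as well (adjusted p = 0.0197), in a comparison that includes the day 14 libraries with crossed markers, whose part in it was not tested. V2_03g017180.1.01 and member 17 did not pass (edgeR, adjusted p = 0.473 and 0.813), with ranges of 0.24 and 0.16 (log2) among the 3 means.

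The rule limits the storage change of the mean over the cultivars and not of each cultivar. Only 10 members stayed within 0.7 (log2) of day 0 in all 4 cultivars at both later days. In IS, 14 members differed from day 0 by 0.7 or more at day 7 and 23 at day 14, against 42.7% and 54.9% of all gene models tested. At day 7 there were 42 in OP, 42 in GGI and 49 in GQ, against 49.5%, 44.8% and 62.5% of all tested. At day 14 there were 30, 31 and 28, against 51.4%, 59.5% and 52.9%. The rule itself limits the mean change, and GGI at day 7 lay near the share of all gene models. In the 42 members under 0.1 CPM in IS, a change there could not be read at this depth. Of the 53 members at 1 CPM or more in IS, 15 moved by that much in IS by day 14, 8 lower and 7 higher.

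Member 26 is an example in which the distance widened in storage. Its CPM in IS were 10.6, 18.2 and 14.0 at day 0, 12.3, 9.93 and 11.0 at day 7, and 5.53, 5.70 and 6.13 at day 14. OP was at 35.0, 36.7 and 32.9 CPM at day 0 and at 46.9, 42.0 and 37.9 at day 14. The IS libraries of day 14 were below those of day 0, while the OP libraries of day 14 were above those of day 0. Member 38 showed the same in IS, with 36.8, 36.5 and 43.4 CPM at day 0 and 12.2, 11.8 and 15.0 at day 14, though IS day 7 replicate 2 had 85.3 beside 24.0 and 30.9. In GGI, member 38 was at 133, 96.7 and 108 CPM at day 0 and at 149, 92.1 and 61.1 at day 14, where the 149 is the library labelled GGI that matched GQ. The other 2 day 14 libraries lay below all those of day 0.

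The median SD within groups was 0.63 (log2) in the members against 0.71 over all tested, but it differed by level in IS. It was 0.42 for the members at 1 CPM or more in IS and 1.48 for those at 0.1 to 1 CPM. For members under 0.1 CPM it was 1.07 where IS had reads and 0.90 where IS had 0 reads. IS libraries with 0 reads add no spread, which lowers this last value. Member 18 illustrates a wide spread on both sides, with 0.270 to 3.20 CPM in IS and 1.44 to 32.2 CPM elsewhere. The summed CPM of all 100 members ran from 830 to 1086 in the IS libraries and from 1907 to 2366 in the other libraries that were not high in reads outside gene models. Per IS library, 67 to 74 members had at least 1 read, against 87 to 100 in the other cultivars without OP day 7 replicate 1, which had 73.

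The IDs carry a number from 1 to 17 before the letter g, and the number after it rises along the list. What the numbers stand for is not given in the sources used here, so the order of the IDs is used as such. Group 3 held 18 members, or 10.5 per 1000 gene models tested, group 14 held 10, or 13.4 per 1000, and group 12 held 10, or 8.42 per 1000. Together these 3 groups, picked after seeing the counts, held 38 of the 100 members and 16.6% of the gene models tested. Group 16 held 0 members of 929 tested, and IDs outside the numbered groups 0 of 148. Of the 13 members with a gap over 3, 4 were in group 3, among them V2_03g017180.1.01, V2_03g009850.1.01, member 6 and member 9.

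**Figure D5:**
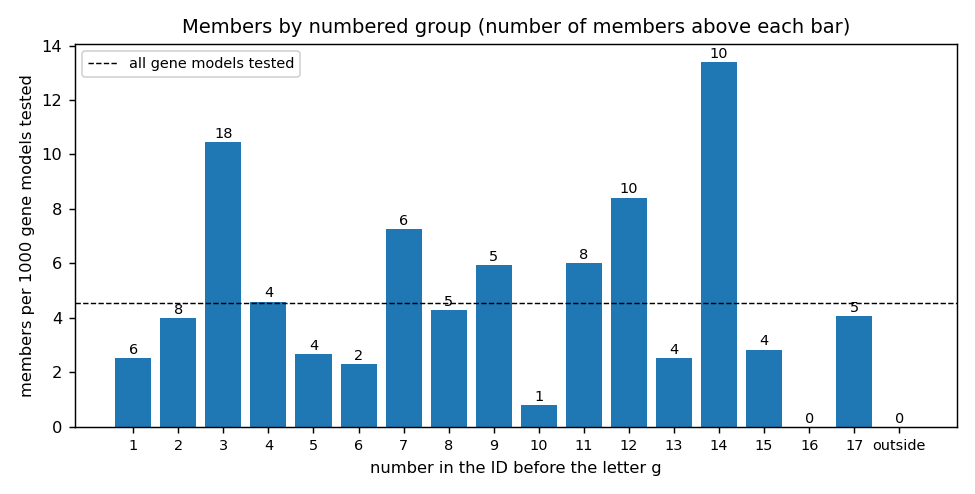
Members per 1000 gene models tested in each numbered group of IDs, with the number of members above each bar; the dashed line is the rate over all gene models tested. Groups 14, 3 and 12 have the highest bars, at 13.4, 10.5 and 8.42 per 1000, and group 16 has none.

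Within this order, 17 members had another member within 10 places, against 6.45% of all gene models tested. The closest were members 92 and 52 in group 15, which lay 2 places apart, followed at 3 places by members 9 and 19 in group 3 and by members 99 and 100 in group 12. Members 9 and 19 are both nearly silent in IS, with 0 and 9 reads. No 2 members were adjacent. Of 155 tested gene models directly next to a member, IS was the lowest cultivar on all 3 days in 13, or 8.39%, against 4.13% of all tested that are not members, and the highest on all 3 days in 11, or 7.10%, against 6.65%. Reads shared between neighbouring or near-identical gene models could be split or dropped in counting, in a way not given in the sources used here.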

How the data were processed

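RNA was sequenced from artichoke hearts in 36 libraries of 4 cultivars and 3 days, with 3 replicates each. The authors deposited 1 table per library with whole-number read counts for 28632 gene models, not normalized, and 5 summary rows for unassigned reads (13.9% to 85.2% of reads, median 16.0%), which were left out. The submitters' processing notes name cutadapt and STAR; their versions, the counting tool, the build, the annotation and strandedness were not given in the sources used here. Groups and replicate numbers come from the sample titles; the labels call the replicates biological, and nothing beyond the spread between these libraries enters a p-value. No pair of replicates agreed within sampling noise (lowest chi-square per degree of freedom 53.1 over 36 pairs).

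Counts were analysed with edgeR 4.0.16 and limma 3.58.1 in R 4.3.3. Gene models with 10 or more reads in 3 or more libraries were kept (21989), scaled by TMM and expressed as log2 CPM with a prior count of 2. All 100 members passed this filter, and 42 would not have passed it in the IS libraries alone. The stability limit of 0.7 was read as that of the mean over the 4 cultivars, since a limit on each cultivar leaves 70 gene models. Differences among OP, GGI and GQ were tested by glmQLFit (robust) and glmQLFTest in 1 fit with a mean for each of the 12 groups. The held-out libraries were fitted with cultivar and day as additive terms, and their calls were read where each held-out IS library had 10 or more reads. A held-out fit has 1 library per cultivar and day. Its SE and p-values therefore do not separate the spread between replicates from differences between cultivars in storage change. A call is a Benjamini-Hochberg adjusted p under 0.05 over all gene models in the fit. DESeq2 1.42.0 was an alternative. The fits were tested on simulated data in which 100 gene models had a 2-fold and 100 a 4-fold difference. These had an average log2 CPM over 0, and all other cultivar differences were removed. With OP raised, the F test among 21780 recovered 45 and 91. With IS lowered, the held-out fits recovered 0 of the 2-fold and 21, 10 and 16 of the 4-fold falls (among 21052, 21105 and 21047). In the simulated data all cultivars also changed alike over the days. The counts do not give the recovery for members at lower levels, or for members whose storage change differs between cultivars. In 26 of the 42 members under 0.1 CPM in IS, the mean of the other cultivars was under 1 CPM.

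The members were chosen with earlier results of these data known. The IDs printed are those of the 2 members with the largest gap and the 2 further members with the highest mean log2 CPM outside IS; other members described were chosen after their values were seen.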

Additional observations from a re-analysis of the deposited data

How the results depend on the processing

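Which gene models make up the 100 depended on several choices. Of the members, 61 were picked again with medians in place of means, 10 with the storage limit set on each cultivar, 23 with no storage limit, 57 without the 4 libraries high in reads outside gene models and 57 without the 6 that stood apart. Leaving out 1 library or 1 replicate number kept 59 to 97 (59, 66 and 68 without replicate 1, 2 and 3 of every group). RLE scaling, other prior counts and other filters kept 79 to 100. Members with all IS libraries below all others numbered 33 and 34 without the 4 and the 6 libraries, and 18 under RLE scaling, which shifted the median difference of all gene models by -0.02 (log2). The gap of V2_03g009850.1.01, with 0 IS reads, was 7.75 with a prior count of 0.5 and 4.49 with 5.

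Calls among OP, GGI and GQ ran from 22 to 45 with 1 library left out. They were 32 with DESeq2 and 26 with the replicate number as a replicate block. The share of all gene models called was 22.2% in the main fit, with 29 members, and 41.2% in the fit with 45. It was not counted in the other fits, so their counts have no background to be read against. The labels do not say that the replicate numbers pair samples, and no general pairing was seen. Deviations of same-numbered libraries correlated with a median r of 0.00111 over 198 pairs, against -0.00115 between different numbers. Of the 198, 43 were over 0.1 and the lowest was -0.531, so this median cannot exclude a link within some groups. In the held-out libraries, edgeR called 5, 16 and 16 of the 100 chosen gene models and DESeq2 53, 48 and 54. Both sets of counts include gene models with too few IS reads, whose direction the filter fixed. With 1 library left out, the edgeR counts ran from 0 to 9, 6 to 17 and 4 to 28. In alternatives chosen after seeing the data they were 1, 12 and 28 without the libraries that stood apart, and 2, 6 and 4 with 10 or more reads in each held-out IS library. Shares over all gene models are given above for these alternatives. They were not counted for the other fits without 1 library, whose counts show only the dependence on single libraries. The causes were not tested. In these fits a lone library of a cultivar and day is assumed to vary like the others. At this depth a gene model with 0 reads in 1 IS library can lie at up to 0.0498 to 0.0760 CPM.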

Other observations

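At day 0, 29 gene models were over 1 CPM in all 9 libraries of OP, GGI and GQ and under 0.1 CPM in the 3 IS libraries (CPM without TMM scaling). The members include 9 of them. Of the other 20, 19 also had a gap over 0 and were left out because the mean over the cultivars moved by 0.7 or more (log2) in storage, and in 1 IS was not the lowest on every day. Of those 20, 18 had a gap above that of member 100.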
